A study of Arabidopsis thaliana with 4 samples.

Results

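The major light-harvesting complex of photosystem II, LHCII, was followed through the transcripts of the 9 nuclear genes that encode its subunits. They were taken as the rows with the listed gene IDs: LHCB1.1 (AT1G29920), LHCB1.2 (AT1G29910), LHCB1.3 (AT1G29930), LHCB1.4 (AT2G34430), LHCB1.5 (AT2G34420), LHCB2.1 (AT2G05100), LHCB2.2 (AT2G05070), LHCB2.3 (AT3G27690) and LHCB3 (AT5G54270). These are 9 of the 33610 gene rows in the table, and 5 belong to the LHCB1 subfamily, 3 to LHCB2 and 1 to LHCB3. All 9 passed the filter on low counts, as did 21322 genes in all. RNA was sequenced from whole Arabidopsis thaliana seedlings of the Col0 accession, 2 weeks old and raised on a plate medium with a reduced strength of MS salts. The groups were a lincRNA11195 mutant given abscisic acid (ABA) for 12 h, the same mutant with no treatment, wild type given ABA for 12 h, and wild type with no treatment. The sample titles name no mock treatment and no harvest time for the untreated groups. The sample description of untreated wild type carries a 12 that the description of the untreated mutant lacks, and its meaning is not stated there. Whether handling and time of day were matched to the ABA groups, or between the untreated groups, is not known from these labels. Each group held 3 biological replicates, which makes 12 libraries. The sample titles name the mutant by its genotype, and the sample descriptions name it by a number. The effect of the lesion and any other difference between the seed lines cannot be told apart. The transcript of lincRNA11195 itself is not analysed here, so the genotype of the mutant libraries was not checked against it in these counts, and no ABA dose is used because the labels read here carry none.

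LHCII is the most abundant membrane protein of the chloroplast. It is a trimer assembled from LHCB1, LHCB2 and LHCB3 proteins, it binds chlorophyll a, chlorophyll b and carotenoids, and it passes absorbed light energy to photosystem II. LHCB1 proteins make up most of the trimers, LHCB2 is the subunit whose phosphorylation lets trimers move between the photosystems in state transitions, and LHCB3 occurs in only some of the trimers. Transcription of these genes depends on light, the circadian clock and signals from the plastid. ABA is the hormone of drought and seed dormancy, and applied ABA has been reported to lower their transcription.

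The genes within a subfamily are near copies of each other, which limits how well short reads can be placed. RefSeq coding sequences (TAIR10.1) were 87.4% to 96.4% identical among the 10 pairs of LHCB1 genes, with a median of 90.7%. LHCB2.1 and LHCB2.2 were 96.6% identical, and LHCB2.3 was 85.8% identical to LHCB2.1 and 84.7% identical to LHCB2.2. Between subfamilies identity was 70.9% to 77.2%. The stretch of coding sequence in which the LHCB1 genes differ most is shown to let the reader see what separates the copies; it starts at base 29 of the LHCB1.3 coding sequence, and capitals mark bases that differ from LHCB1.3 in the alignment. LHCB1.4 and LHCB1.5 are shorter there because of gaps.

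LHCB1.1: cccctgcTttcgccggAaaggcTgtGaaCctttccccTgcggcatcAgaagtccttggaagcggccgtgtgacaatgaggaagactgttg
LHCB1.2: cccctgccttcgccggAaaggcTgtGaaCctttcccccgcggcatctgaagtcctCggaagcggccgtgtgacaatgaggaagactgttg
LHCB1.3: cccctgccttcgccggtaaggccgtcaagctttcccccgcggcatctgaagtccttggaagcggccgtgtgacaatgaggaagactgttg
LHCB1.4: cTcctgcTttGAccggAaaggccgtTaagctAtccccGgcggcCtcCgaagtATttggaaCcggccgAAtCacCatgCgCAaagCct
LHCB1.5: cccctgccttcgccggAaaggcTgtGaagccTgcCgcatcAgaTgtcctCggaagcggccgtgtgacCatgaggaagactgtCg

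LHCB1.4 carried 21 differing bases in this stretch, LHCB1.5 carried 10, LHCB1.1 carried 7 and LHCB1.2 carried 5. LHCB1.1, LHCB1.2 and LHCB1.3 lie next to each other on chromosome 1, and LHCB1.4 and LHCB1.5 on chromosome 2. The equivalent stretch of the LHCB2 genes starts at base 18 of the LHCB2.1 coding sequence, with capitals at bases that differ from LHCB2.1.

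LHCB2.1: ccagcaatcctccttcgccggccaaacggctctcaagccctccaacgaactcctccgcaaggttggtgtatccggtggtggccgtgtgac
LHCB2.2: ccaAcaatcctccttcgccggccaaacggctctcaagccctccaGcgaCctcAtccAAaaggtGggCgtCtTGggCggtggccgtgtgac
LHCB2.3: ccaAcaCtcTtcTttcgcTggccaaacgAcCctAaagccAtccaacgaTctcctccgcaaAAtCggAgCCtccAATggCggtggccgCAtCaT

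Of all runs of 50 bases in the annotated transcripts, 20.5% in LHCB1.1, 10.6% in LHCB1.2, 17.0% in LHCB1.3, 13.7% in LHCB1.4 and 17.3% in LHCB1.5 also occurred in another LHCB1 gene. The share was 23.5% in LHCB2.1 and 29.5% in LHCB2.2, and none of the runs of LHCB2.3 or LHCB3 recurred within the family. How the counting treated reads with more than 1 match is unknown here, so values of single LHCB1 genes and of LHCB2.1 and LHCB2.2 are uncertain, and the sum of each subfamily is given beside them. Some members also overlap a gene on the opposite strand, and whether counting used the strand is unknown too. LHCB1.5 lies wholly within AT2G08665, which has no row in the table, and also shares 99 bases with RWA3. LHCB2.3 shares 595 bases with AT3G27700, LHCB3 shares 186 with ATM2 and LHCB1.3 shares 108 with NRPA2.

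The 250 bases before the annotated gene start were searched on both strands for letters of known light, clock and ABA motifs. CCAATC, a motif linked to GLK transcription factors, occurred in 5 of the 9 (LHCB1.3, LHCB1.5, LHCB2.1, LHCB2.2 and LHCB2.3) and in 10.2% of 27443 promoters of the same length. AAAAATCT, a form of the CCA1 binding site, occurred in LHCB1.1 and LHCB1.4, against 6.69% of promoters. Of the ABA response elements, ACGTGTC occurred in LHCB1.3 and LHCB2.3 (3.68% of promoters) and ACGTGGC in LHCB1.1 (3.37%). The G-box CACGTG occurred in LHCB2.3 (6.49%) and the I-box GATAAG in LHCB2.1 (12.3%). TATAAA occurred in LHCB1.5 and LHCB3, against 47.3% of promoters, while AACAATCT (1.83%) and the evening element AAAATATCT (2.36%) occurred in no member. The promoters of LHCB1.3, the gene with the most reads, and of LHCB1.4 and LHCB1.5 are shown with these motifs in capitals. LHCB1.4 and LHCB1.5 were the members that rose under ABA in the mutant. LHCB1.3 and LHCB1.4 lie on the plus strand and LHCB1.5 on the minus strand.

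LHCB1.3: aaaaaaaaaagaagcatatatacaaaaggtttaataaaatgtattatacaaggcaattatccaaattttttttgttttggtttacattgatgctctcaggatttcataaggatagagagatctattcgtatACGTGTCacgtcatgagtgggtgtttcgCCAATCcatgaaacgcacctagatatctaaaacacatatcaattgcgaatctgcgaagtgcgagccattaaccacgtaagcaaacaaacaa
LHCB1.4: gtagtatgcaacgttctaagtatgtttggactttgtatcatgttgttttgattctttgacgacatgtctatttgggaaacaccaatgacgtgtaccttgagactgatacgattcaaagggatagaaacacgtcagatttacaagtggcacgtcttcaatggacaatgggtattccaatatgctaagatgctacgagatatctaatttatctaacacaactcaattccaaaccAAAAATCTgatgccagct
LHCB1.5: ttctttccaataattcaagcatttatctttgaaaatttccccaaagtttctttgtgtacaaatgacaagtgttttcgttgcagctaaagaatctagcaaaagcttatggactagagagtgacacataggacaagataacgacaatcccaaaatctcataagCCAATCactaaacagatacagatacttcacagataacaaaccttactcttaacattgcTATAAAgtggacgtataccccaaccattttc

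In LHCB1.3 the capitals mark ACGTGTC and CCAATC, in LHCB1.4 they mark AAAAATCT, and in LHCB1.5 they mark CCAATC and TATAAA. A match is a description of the sequence and not evidence of binding.

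Total counts per library ranged from 14691544 to 22477294, both in the untreated mutant. A count of 3 corresponded to 0.133 to 0.204 CPM, the unit of all levels below, which is the count relative to library size after scaling with TMM factors. Each member exceeded that level in each library. The ABA marker genes RD29A and RAB18 rose under ABA by 4.40 ± 0.33 and 6.86 ± 0.86 on the log2 scale in the mutant and by 4.54 ± 0.33 and 4.70 ± 0.73 in wild type (± SE, adjusted p 8.03e-07, 5.04e-05, 5.21e-07 and 0.000178). Untreated, RAB18 was lower in the mutant than in wild type by a log2 difference of -3.64 ± 0.80 (adjusted p = 0.00668).

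Together the 9 genes were far more abundant in untreated wild type than in any other group. Their summed level was 479, 285 and 557 CPM in the mutant under ABA, 314, 521 and 824 CPM in the untreated mutant, 1194, 985 and 793 CPM in wild type under ABA, and 5777, 8079 and 4915 CPM in untreated wild type. In mean ± SD (n = 3 each) the mutant under ABA had 440.2 ± 140.0 CPM, the untreated mutant 553 ± 257 CPM, wild type under ABA 990.5 ± 200.3 CPM and untreated wild type 6257 ± 1636 CPM. The 3 untreated wild type libraries lay above the other 9 libraries. Neighbouring groups in the order below them overlapped: the untreated mutant overlapped wild type under ABA as well as the mutant under ABA. Their share of all counts was 0.0311% to 0.0581% in the mutant under ABA, 0.0351% to 0.0825% in the untreated mutant, 0.0843% to 0.116% in wild type under ABA and 0.448% to 0.692% in untreated wild type.

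Among the LHCB1 genes, the main subunits of the trimer, LHCB1.3 dominated. It had 347, 198 and 400.4 CPM in the mutant under ABA, 201, 377 and 597 CPM in the untreated mutant, 881, 685 and 581 CPM in wild type under ABA, and 4513, 6328 and 3830.5 CPM in untreated wild type. LHCB1.2 had 26.9, 20.6 and 38.9 CPM in the mutant under ABA, 25.2, 38.2 and 63.5 CPM in the untreated mutant, 48.4, 49.3 and 62.3 CPM in wild type under ABA, and 514, 778 and 371 CPM in untreated wild type. LHCB1.1 had 19.4, 6.77 and 15.6 CPM in the mutant under ABA, 24.1, 34.3 and 56.3 CPM in the untreated mutant, 45.0, 48.4 and 19.1 CPM in wild type under ABA, and 304, 416 and 229 CPM in untreated wild type. These 3 neighbours on chromosome 1 shared 1 pattern: untreated wild type stood clear of the other groups, and the untreated mutant overlapped wild type under ABA. LHCB1.1 differed from LHCB1.2 and LHCB1.3 in that its mutant libraries under ABA all lay below its untreated mutant libraries.

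LHCB1.5 on chromosome 2 had 16.6, 12.3 and 12.1 CPM in the mutant under ABA, 5.35, 4.34 and 6.62 CPM in the untreated mutant, 48.5, 34.7 and 19.8 CPM in wild type under ABA, and 197, 219.9 and 187 CPM in untreated wild type. Its groups did not overlap at all, and the lowest was the untreated mutant. LHCB1.4, also on chromosome 2, had 16.8, 5.54 and 4.47 CPM in the mutant under ABA, 0.852, 0.715 and 1.55 CPM in the untreated mutant, 62.8, 40.2 and 9.16 CPM in wild type under ABA, and 50.9, 12.0 and 87.0 CPM in untreated wild type. The untreated mutant was again lowest and stood clear of the rest, while the other 3 groups overlapped in part. LHCB1.4 varied most between replicates of the family, with a coefficient of variation of 72.0% to 76.4% in every group but the untreated mutant, where it was 43.3%.

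The LHCB2 genes, which encode the subunit phosphorylated in state transitions, had few reads. LHCB2.1 had 4.46, 4.02 and 6.33 CPM in the mutant under ABA, 3.47, 4.58 and 6.97 CPM in the untreated mutant, 7.25, 7.55 and 5.59 CPM in wild type under ABA, and 24.1, 26.2 and 19.6 CPM in untreated wild type. LHCB2.2 had 2.104, 1.53 and 2.66 CPM in the mutant under ABA, 1.70, 2.098 and 2.98 CPM in the untreated mutant, 4.34, 4.02 and 3.66 CPM in wild type under ABA, and 10.3, 14.7 and 8.89 CPM in untreated wild type. In both genes untreated wild type was clear of the rest, and the mutant groups overlapped each other. LHCB2.3 had 1.80, 0.865 and 1.81 CPM in the mutant under ABA, 1.58, 1.91 and 4.98 CPM in the untreated mutant, 2.91, 3.63 and 2.06 CPM in wild type under ABA, and 14.1, 14.9 and 14.7 CPM in untreated wild type. Replicate 3 of the untreated mutant stood above its 2 partners for LHCB2.3. LHCB3, the subunit found in only some of the trimers, had 43.7, 34.8 and 74.3 CPM in the mutant under ABA, 50.1, 57.7 and 83.6 CPM in the untreated mutant, 93.3, 112 and 90.5 CPM in wild type under ABA, and 149.9, 269 and 167 CPM in untreated wild type. LHCB3 had the smallest ratio of highest to lowest group mean in the family, and its untreated wild type libraries also stood clear.

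**Figure D1:**
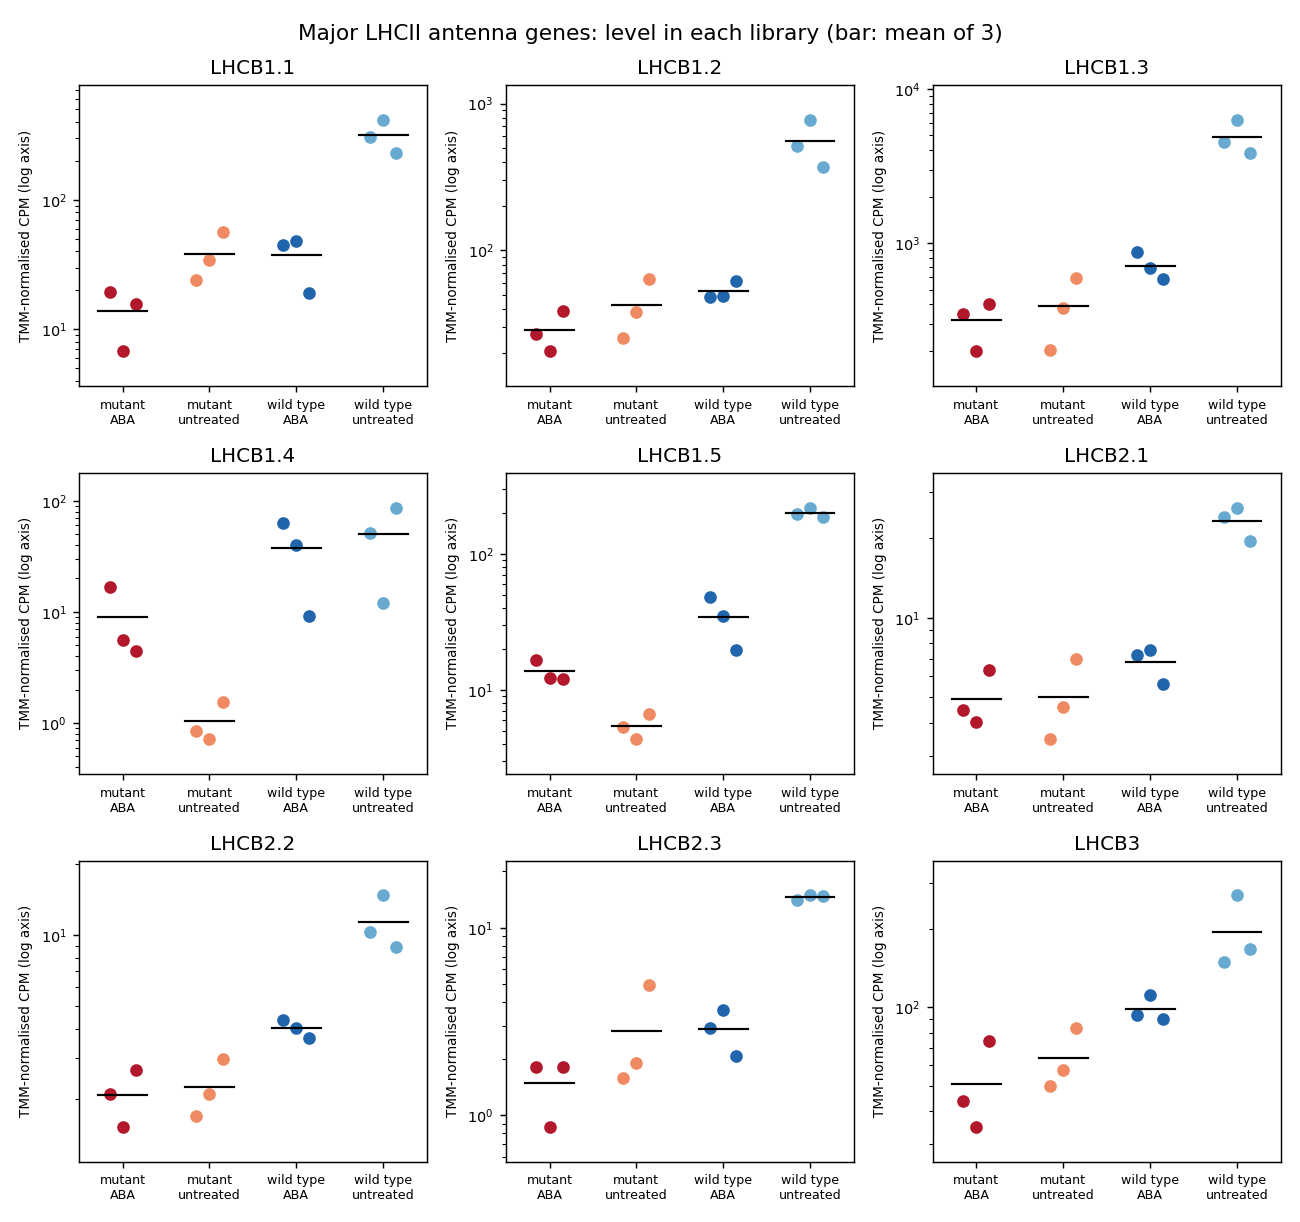
Level of each of the 9 genes in TMM-normalised CPM on a log axis, 1 point per library and a bar at the mean of 3, with mutant under ABA, untreated mutant, wild type under ABA and untreated wild type from left to right. The untreated wild type points stand above the other groups in every panel but that of LHCB1.4, and LHCB1.4 and LHCB1.5 are lowest in the untreated mutant.

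Set per kilobase of annotated exon so that genes can be compared, LHCB1.3 averaged 3976 ± 1049 CPM per kb in untreated wild type and stood above all others (SD, n = 3 here and below). LHCB1.2 followed at 453 ± 169, LHCB1.1 at 241 ± 71.7, LHCB1.5 at 193 ± 16.1 and LHCB3 at 157 ± 51.9 CPM per kb, and each of these overlapped the next in its replicates. LHCB1.4 stood at 38.1 ± 28.6, LHCB2.1 at 16.6 ± 2.39, LHCB2.3 at 9.95 ± 0.28 and LHCB2.2 at 9.88 ± 2.66 CPM per kb. LHCB1.4 lay below LHCB3 and overlapped LHCB2.1, and LHCB2.3 lay below LHCB2.1 and overlapped LHCB2.2. In the untreated mutant LHCB1.3 led with 319 ± 161 CPM per kb, but LHCB3 came next with 51.4 ± 14.2, above LHCB1.2 with 34.6 ± 15.9, and LHCB1.4 came last with 0.793 ± 0.343. LHCB3 and LHCB1.2 overlapped there.

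In wild type, 8 of the 9 genes fell under ABA, and none rose. Across all tested genes 28.2% fell, 25.2% rose and 53.4% were called in either direction. The median log2 fold change of the 9 was -2.35, against -0.03 over all genes tested. The libraries of the 8 genes did not overlap between treatments, which held in this direction for 32.3% of all genes. LHCB1.2 fell most, by a log2 fold change of -3.38 ± 0.37 (SE), which is 10.4-fold (edgeR quasi-likelihood test, adjusted p = 1.21e-05). LHCB1.1 followed at -3.08 ± 0.45, LHCB1.3 at -2.77 ± 0.39 and LHCB1.5 at -2.55 ± 0.27 (adjusted p 0.000116, 8.25e-05 and 9.53e-06). The summed LHCB1 counts fell by 2.78 ± 0.38 on the log2 scale, or 6.85-fold (adjusted p = 7e-05). LHCB2.3, LHCB2.1 and LHCB2.2 stood at -2.35 ± 0.37, -1.78 ± 0.25 and -1.49 ± 0.25 (adjusted p 0.000208, 7.67e-05 and 0.00032), and the LHCB2 sum fell by 1.85 ± 0.26, or 3.60-fold (adjusted p = 9.37e-05). LHCB3 fell least among the called genes, by 0.99 ± 0.29, or 1.98-fold (adjusted p = 0.0125). LHCB1.4 was not called, at -0.42 ± 0.69 (adjusted p = 0.627), and its interval of -1.92 to 1.08 covers changes in either direction.

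In whole seedlings, fewer cells with active chloroplasts and less of these RNAs per cell cannot be told apart. The summed level of 6 green tissue markers (RBCS1A, RBCS2B, RBCS3B, RCA, CA1 and PSBO1) ranged over 9815 to 11276 CPM in wild type under ABA and 41926 to 44076 CPM in untreated wild type, and all 6 markers fell. The summed level of 15 root markers ranged over 102 to 118 CPM in wild type under ABA and 170.4 to 218 CPM in untreated wild type, with 9 of 15 lower and 1 higher. Of 5 seed and embryo markers none passed the filter, and their summed level stayed at or under 0.291 CPM in every library. NRPA2, which overlaps LHCB1.3 on the opposite strand, fell by 0.55 ± 0.18 (adjusted p = 0.0193), and ATM2, which overlaps LHCB3, rose by 0.59 ± 0.23 (adjusted p = 0.0429). The part of these shifts in the result was not tested. The members are rich in GC, with 6 of the 9 (the 5 LHCB1 genes and LHCB2.2) in the highest decile of GC content, where the median log2 fold change of 2120 genes was -0.65. After a correction for length and GC content 6 of the 9 were called lower: the LHCB1 sum stood at -1.43 ± 0.23 and the LHCB2 sum at -1.41 ± 0.17, LHCB1.1, LHCB1.2, LHCB1.3 and LHCB1.5 stood at -2.18, -2.03, -1.50 and -0.96, LHCB2.2 and LHCB3 lost their calls at -0.37 and -0.46 (adjusted p 0.0972 and 0.0741), and LHCB1.4 turned to 0.83. Without replicate 2 of untreated wild type the call of LHCB3 was also lost (-0.63, adjusted p = 0.0839), and without replicate 3 of untreated wild type or replicate 3 of wild type under ABA the sign of LHCB1.4 turned (0.25 and 0.04).

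The untreated mutant was lower than untreated wild type in all 9 genes. Of all tested genes 14.8% were lower, 8.77% were higher and 23.6% were called in either direction. All 9 separated without overlap, which held in this direction for 23.9% of all genes, and their median log2 difference was -3.05, against 0.01 over all genes tested. LHCB1.4 and LHCB1.5 were lowered most, by -5.55 ± 0.93 and -5.21 ± 0.31, which are 47.0-fold and 36.9-fold (adjusted p 0.00123 and 2.5e-06). Counts of LHCB1.4 were 14, 15 and 35 in the untreated mutant, against 873, 195 and 1448 in untreated wild type. LHCB1.2, LHCB1.3 and LHCB1.1 stood at -3.71 ± 0.37, -3.64 ± 0.40 and -3.05 ± 0.45 (adjusted p 4.58e-05, 7.68e-05 and 0.000539). LHCB2.3, LHCB2.2 and LHCB2.1 lay close together at -2.34 ± 0.37, -2.30 ± 0.26 and -2.20 ± 0.25 (adjusted p 0.00089, 1e-04 and 9.66e-05), and LHCB3 was lowered least, by -1.61 ± 0.30 or 3.06-fold (adjusted p = 0.00237). The LHCB1 sum was 12.6-fold lower (-3.65 ± 0.39, adjusted p = 6.83e-05) and the LHCB2 sum 4.84-fold lower (-2.28 ± 0.27, adjusted p = 0.000118).

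All 9 calls were also made in each of 14 alternative settings, among them leaving out any of the 6 libraries. Some sizes depended on single libraries: LHCB1.4 stood at -4.89 without replicate 3 of untreated wild type, and LHCB2.3 at -3.05 without replicate 3 of the untreated mutant. After the length and GC correction the LHCB1 sum stood at -2.30 ± 0.24 and the LHCB2 sum at -1.76 ± 0.18, LHCB1.1, LHCB1.2 and LHCB1.3 at -2.09, -2.36 and -2.36, LHCB1.4 and LHCB1.5 at -4.20 and -3.004, LHCB2.2 at -1.13 and LHCB3 at -0.99, where the highest GC decile had a median of -0.63 before correction. The correction changed the balance over all genes: 37.2% of called genes were higher before it and 48.5% after it. Green tissue markers summed to 10100.0 to 21398 CPM in the untreated mutant and 41926 to 44076 CPM in untreated wild type, with 6 of 6 lower, and root markers to 75.6 to 159.7 CPM in the untreated mutant and 170.4 to 218 CPM in untreated wild type, with 4 of 15 lower. Within the untreated mutant the library with the fewest reads had the lowest summed level of the 9 genes and the library with the most reads had the highest. The part of these shifts was not tested. Genes that overlap members on the opposite strand were not called lower in this comparison: NRPA2 was higher by 0.56 ± 0.18 (adjusted p = 0.0362), and RWA3, ATM2 and AT3G27700 stood at 0.42, 0.54 and 0.02 and were not called.

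Under ABA in the mutant 2 of the 9 genes rose, 1 fell and 6 were not called. Of all tested genes 21.5% rose, 21.1% fell and 42.5% were called in either direction, so the count among the 9 is near the share over all genes. The median log2 fold change of the 9 was -0.31, where that of all tested genes was under 0.01 in size. The genes that rose were the LHCB1 copies of chromosome 2: LHCB1.4 rose by 3.07 ± 0.91, or 8.42-fold, and LHCB1.5 by 1.33 ± 0.28, or 2.51-fold (adjusted p 0.0166 and 0.0024). Both separated without overlap, as did 25.8% of all genes in that direction. LHCB1.1 fell by 1.46 ± 0.43, or 2.75-fold (adjusted p = 0.0166), again without overlap (24.4% of all genes in that direction). The call of LHCB1.5 was made in all 14 alternatives. That of LHCB1.4 was lost without replicate 2 of the untreated mutant (2.85, adjusted p = 0.0607) or replicate 1 of the mutant under ABA (2.24, adjusted p = 0.0843), and that of LHCB1.1 without replicate 3 of the untreated mutant (-1.07, adjusted p = 0.0814) or replicate 2 of the mutant under ABA (-1.13, adjusted p = 0.0605).

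For the sums the intervals were wide. The LHCB1 sum stood at -0.33 ± 0.35 (interval -1.10 to 0.44, adjusted p = 0.48) and the LHCB2 sum at -0.25 ± 0.27 (interval -0.83 to 0.33, adjusted p = 0.476). The wild type estimates of -2.78 and -1.85 lie outside these intervals. That reading leaves out the error of the wild type estimates, and the difference between genotypes is tested as the interaction below. Without replicate 3 of the untreated mutant both signs turned, to 0.10 and 0.15, and after the length and GC correction the LHCB1 sum stood at 0.05. LHCB2.3 stood at -0.94 ± 0.41 (adjusted p = 0.0836), and was called at -1.21 (adjusted p = 0.0285) without replicate 1 of the untreated mutant and stood at -0.23 without its replicate 3. LHCB1.2, LHCB1.3, LHCB2.1, LHCB2.2 and LHCB3 had adjusted p from 0.21 to 0.931, with log2 fold changes between -0.56 and -0.03. Green tissue markers fell in 4 of 6 cases here, with sums of 5803 to 10166 CPM in the mutant under ABA and 10100.0 to 21398 CPM in the untreated mutant. Root markers fell in 6 of 15 cases and rose in 1, with a median of -0.74 and sums of 69.8 to 90.6 CPM in the mutant under ABA and 75.6 to 159.7 CPM in the untreated mutant. NRPA2 fell by 1.1 ± 0.18 (adjusted p = 0.000371). The part of these shifts was not tested.

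Between genotypes under ABA, 1 of the 9 genes was called and 8 were not. LHCB1.5 was lower in the mutant by -1.33 ± 0.27 or 2.51-fold (adjusted p = 0.0233), in a comparison where 0.178% of all genes were lower, 1.61% were higher and 1.79% were called in either direction. All 9 estimates were below 0, with a median of -0.95 against -0.01 over all genes tested. In 6 of the 9 (LHCB1.2, LHCB1.3, LHCB1.5, LHCB2.2, LHCB2.3 and LHCB3) each mutant library lay below each wild type library, which held for 8.71% of all genes. The LHCB1 sum stood at -1.21 ± 0.36 (interval -1.98 to -0.43, adjusted p = 0.144) and the LHCB2 sum at -0.68 ± 0.27 (interval -1.26 to -0.11, adjusted p = 0.298). Green tissue markers summed to 5803 to 10166 CPM in the mutant under ABA and 9815 to 11276 CPM in wild type under ABA, with overlap, and root markers to 69.8 to 90.6 CPM in the mutant under ABA and 102 to 118 CPM in wild type under ABA, without overlap. The 6 green and 15 root markers had median log2 differences of -0.42 and -0.39, with edgeR adjusted p from 0.365 to 0.977 and from 0.261 to 0.963, and their part was not tested. DESeq2 called 5 of the 9 members lower (LHCB1.1, LHCB1.3, LHCB1.5, LHCB2.2 and LHCB3) and 753 genes in all, against 382 by edgeR. The call of LHCB1.5 was lost after the length and GC correction (-0.72, adjusted p = 0.134), in a fit of the 2 groups alone (-1.32, adjusted p = 0.0851), and without replicate 1 or 2 of wild type under ABA (-0.99 and -1.32) or replicate 2 or 3 of the mutant under ABA (-1.26 and -1.25); LHCB3 was called at -1.33 without the last of these libraries (adjusted p = 0.039).

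Whether ABA acted alike in both genotypes was tested as an interaction, coded as the log2 fold change in the mutant minus the one in wild type. LHCB1.5 differed most between genotypes, by 3.88 ± 0.39 on the log2 scale (adjusted p = 0.00105). LHCB1.2, LHCB1.3 and LHCB2.1 differed by 2.82 ± 0.49, 2.46 ± 0.52 and 1.74 ± 0.35 (adjusted p 0.0111, 0.0312 and 0.0252). These 4 of 9 were all higher, in a test that called 1.66% of all genes higher, 0.141% lower and 1.8% in either direction. The LHCB1 sum differed by 2.44 ± 0.51 (adjusted p = 0.0293), and the LHCB2 sum, at 1.59 ± 0.37, missed the threshold (adjusted p = 0.0507). LHCB1.4 had a large but poorly measured difference of 3.49 ± 1.15 (adjusted p = 0.185), LHCB1.1 and LHCB2.3 stood at 1.62 ± 0.60 and 1.41 ± 0.55, LHCB2.2 at 1.37 ± 0.38 and LHCB3 at 0.66 ± 0.41 (adjusted p 0.262, 0.298, 0.0947 and 0.574). The interaction and the contrasts of the untreated groups use the same untreated libraries, so the low starting level of the mutant enters each of them. The median interaction was 1.74 for the 9 members and -0.007 over all genes tested. For the 6 green tissue markers it was 1.05, and none was called. For the 15 root markers it was 0.29, with 1 called higher. In the highest GC decile, which held the LHCB1 genes and LHCB2.2, the median was 0.36. The part of these shifts was not tested.

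LHCB1.5 was called in the interaction in all 19 alternatives, and stood at 2.28 after the length and GC correction. After that correction LHCB1.2, LHCB1.3 and LHCB2.1 stood at 1.83, 1.55 and 1.47 and the LHCB1 sum at 1.48, all called (adjusted p 0.0435, 0.0427, 0.018 and 0.0484). Leaving out 1 library often ended the other calls. The LHCB1 sum lost its call without replicate 1 or 2 of untreated wild type (2.49 and 2.17), replicate 2 or 3 of wild type under ABA (2.43 and 2.298), replicate 2 of the untreated mutant (2.36), or replicate 1 or 3 of the mutant under ABA (2.35 and 2.26), and LHCB1.3 lost its call without the same libraries. LHCB2.1 lost its call without replicate 1 or 2 of untreated wild type (1.72 and 1.60), replicate 2 or 3 of wild type under ABA (1.83 and 1.62), replicate 1 or 2 of the untreated mutant (1.54 and 1.63) or replicate 3 of the mutant under ABA (1.52), and LHCB1.2 without replicate 2 of the untreated mutant (2.70). Without replicate 3 of the untreated mutant LHCB2.3 was called at 2.11, LHCB2.2 at 1.63 and the LHCB2 sum at 1.99, and without replicate 2 of the mutant under ABA the LHCB2 sum was called at 1.76.

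**Figure D2:**
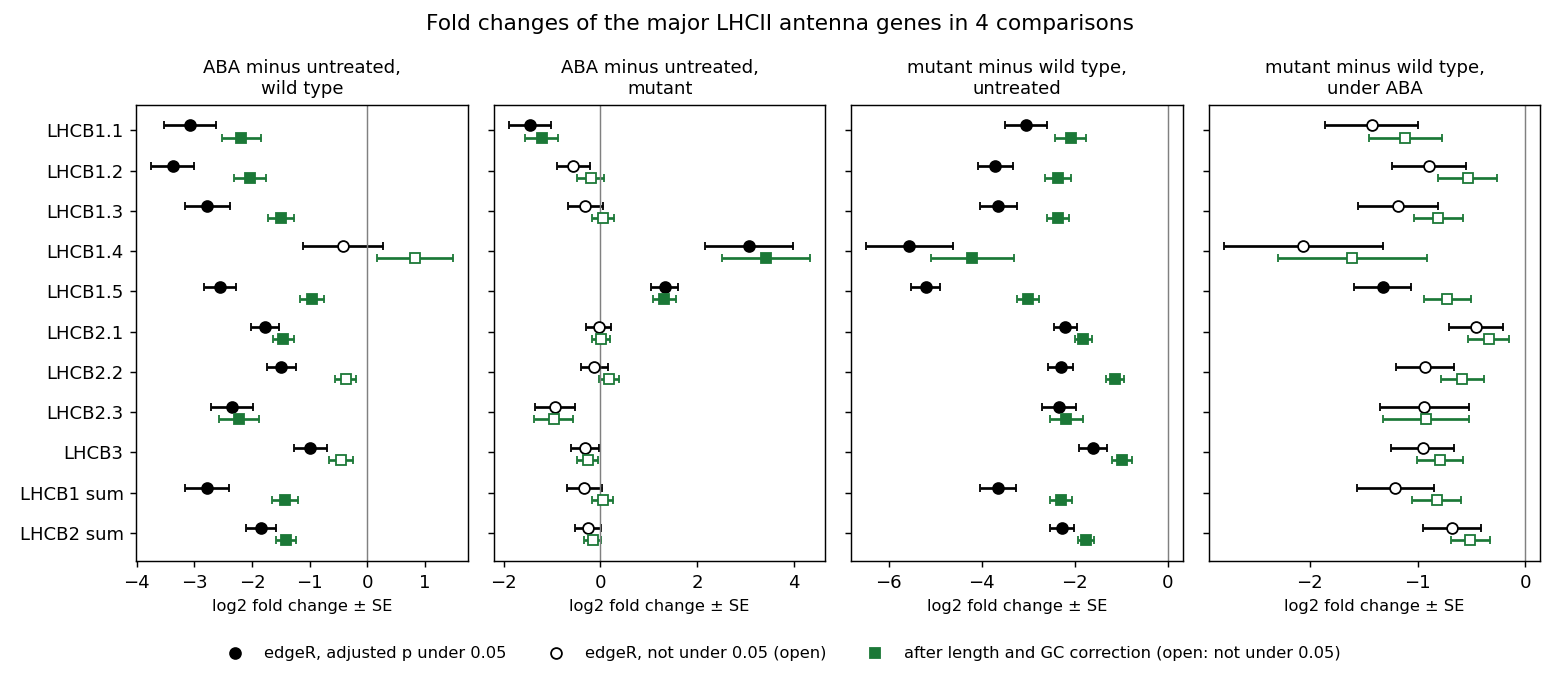
Log2 fold change with its SE for each gene and both subfamily sums in 4 comparisons, as black circles from edgeR on the counts and as green squares after a length and GC correction, filled where the adjusted p is under 0.05. Points lie left of 0 for all 9 genes in the untreated mutant, LHCB1.4 and LHCB1.5 lie right of 0 for ABA in the mutant, and in the untreated mutant the correction brings the LHCB1 sum to -2.30 and the LHCB2 sum to -1.76.

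LHCB1.3 supplied most of the counts in every group. Of the counts of all 9 genes it held 71.4% ± 1.499 in the mutant under ABA, 69.7% ± 4.76 in the untreated mutant, 72.2% ± 2.32 in wild type under ABA and 78.1% ± 0.192 in untreated wild type (SD, n = 3 each), and the 3 untreated wild type libraries lay above the other 9. Within the LHCB1 subfamily, where it is itself most of the total and its share has little room to move, LHCB1.3 held 82.6% ± 2.02 of LHCB1 counts in the mutant under ABA, 81.2% ± 2.48 in the untreated mutant, 81.7% ± 2.13 in wild type under ABA and 81.3% ± 0.366 in untreated wild type. LHCB1.5 held 3.84% ± 1.24 in the mutant under ABA, 1.32% ± 0.664 in the untreated mutant, 3.79% ± 0.830 in wild type under ABA and 3.45% ± 0.575 in untreated wild type, and its 3 untreated mutant libraries lay below the other 9. LHCB1.4 held 0.234% ± 0.0887 in the untreated mutant, against 0.972% ± 0.849 in untreated wild type, with overlap. LHCB1.1 held its largest share in the untreated mutant, 8.23% ± 0.998, against 5.23% ± 0.312 in untreated wild type, without overlap. Within LHCB2 the largest share was that of LHCB2.1, at 58.2% ± 4.72 in the mutant under ABA, 50.5% ± 3.39 in the untreated mutant, 49.7% ± 0.285 in wild type under ABA and 47.3% ± 2.21 in untreated wild type.

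In uncorrected counts the share of LHCB3 in the family was higher in every other group than in untreated wild type. Counts of LHCB1 genes outnumbered those of LHCB3 by 9.77, 7.0 and 6.35 times in the mutant under ABA, 5.13, 7.87 and 8.68 times in the untreated mutant, 11.6, 7.66 and 7.64 times in wild type under ABA, and 37.2, 28.8 and 28.2 times in untreated wild type. LHCB3 held 11.6% ± 2.19 of the counts of the 9 genes in the mutant under ABA, 12.4% ± 3.12 in the untreated mutant, 10.2% ± 2.06 in wild type under ABA and 3.11% ± 0.444 in untreated wild type. The ratio of LHCB1 to LHCB2 counts was 51.0, 38.0 and 43.7 in the mutant under ABA, 38.1, 52.9 and 48.6 in the untreated mutant, 74.9, 56.4 and 61.1 in wild type under ABA, and 115, 139 and 109 in untreated wild type. Both ratios lay below untreated wild type, without overlap, in wild type under ABA and in the untreated mutant, with log2 differences of -1.82 and -2.14 for LHCB1 to LHCB3 and -0.92 and -1.38 for LHCB1 to LHCB2. An exact two-sided permutation test of 3 against 3 libraries gave p = 0.1 for each, the smallest it can give, and 0.2 after adjustment over the 12 ratio comparisons made. These ratios use uncorrected counts, and GC content differed between subfamilies: it was 45.9% to 51.4% in LHCB1, 41.5% to 46.4% in LHCB2 and 43.7% in LHCB3. After the length and GC correction the LHCB1 sum, the LHCB2 sum and LHCB3 stood at log2 changes of -1.43 ± 0.23, -1.41 ± 0.17 and -0.46 ± 0.21 under ABA in wild type, so the LHCB1 and LHCB2 sums there no longer lay apart by more than their SEs. In the untreated mutant they stood at -2.30 ± 0.24, -1.76 ± 0.18 and -0.99 ± 0.21, against -3.65 ± 0.39, -2.28 ± 0.27 and -1.61 ± 0.30 before the correction. The LHCB1 sum thus lay closer to the LHCB2 sum and to LHCB3 than before it. The LHCB2 sum and LHCB3 did not draw closer to each other in either comparison.

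**Figure D3:**
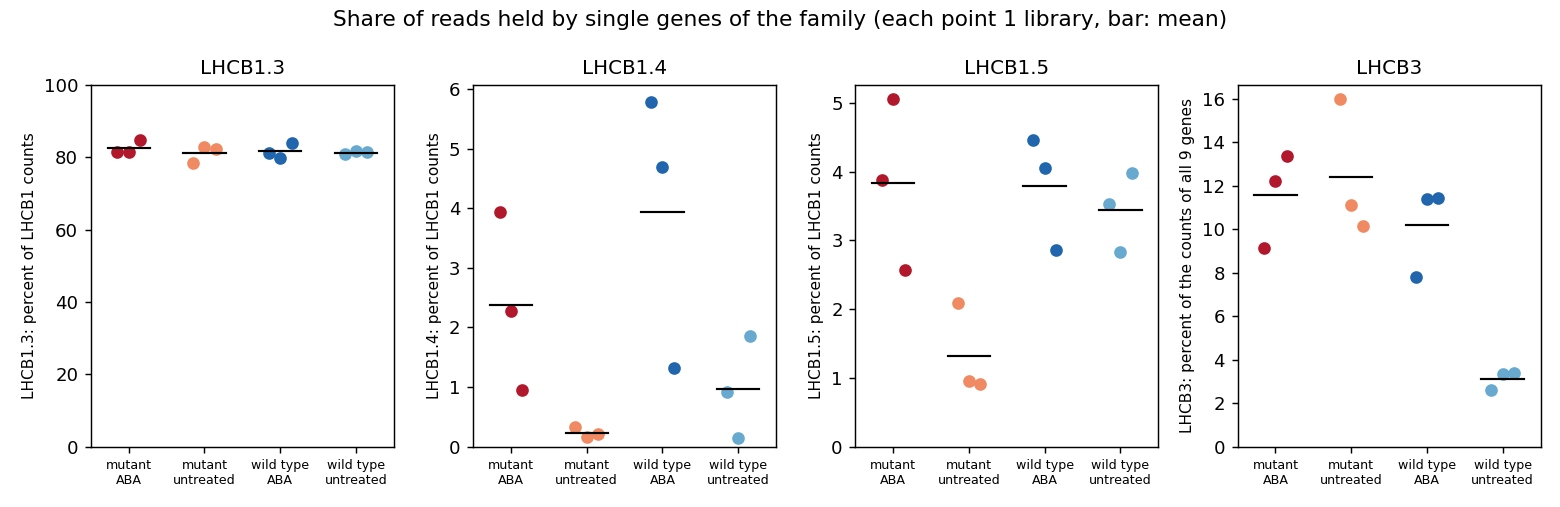
Percent of LHCB1 counts held by LHCB1.3, LHCB1.4 and LHCB1.5, and percent of the counts of all 9 genes held by LHCB3, 1 point per library with the group mean as a bar. LHCB1.3 means lie between 81.2% and 82.6% in each group, LHCB1.5 is lowest in the untreated mutant, and LHCB3 is lowest in untreated wild type at 2.59% to 3.39%.

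The other antenna genes were set beside the members. Of 5 genes for the minor antenna, the monomeric proteins that link LHCII to the core, all 5 fell under ABA in wild type (median -2.91) and all 5 were lower in the untreated mutant (median -2.83). Of all tested genes 28.2% fell under ABA in wild type and 14.8% were lower in the untreated mutant. LHCB6 changed most, at -3.47 ± 0.30 and -3.60 ± 0.30, and LHCB5 least, at -0.86 ± 0.31 and -0.99 ± 0.32. Under ABA in the mutant 1 of 5 fell, LHCB4.3 at -1.09 ± 0.34 (adjusted p = 0.0213), while LHCB6 stood at -0.31 ± 0.28. Of all genes 21.1% fell there, so the count is near the share over all genes. No minor antenna gene was called between genotypes under ABA, where LHCB4.2 at -0.84 ± 0.35 and LHCB4.3 at -0.40 ± 0.34 were the outer values. The interaction was called for LHCB6 at 3.16 ± 0.40 and LHCB4.1 at 2.55 ± 0.37 (adjusted p 0.00236 and 0.00437), while LHCB5 stood at 0.31 ± 0.44. It was called higher for 1.66% of all genes. Of 6 photosystem I antenna genes 5 fell under ABA in wild type (median -0.82) and 6 were lower in the untreated mutant (median -1.42), and none was called in the other contrasts. LHCA2 changed most, at -1.91 ± 0.29 and -2.38 ± 0.30; LHCA4 changed least under ABA in wild type, at -0.70 ± 0.24, and LHCA6 least in the untreated mutant, at -0.76 ± 0.16. Their outer values were LHCA3 at -0.59 ± 0.36 and LHCA4 at 0.21 ± 0.24 for ABA in the mutant, LHCA1 at -1.13 ± 0.41 and LHCA6 at -0.16 ± 0.16 between genotypes under ABA, and LHCA3 at 0.26 ± 0.51 and LHCA2 at 1.69 ± 0.40 in the interaction. The comparison under ABA in wild type and that of the untreated genotypes share the untreated wild type libraries, and the values of these related genes were not corrected for GC content.

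Of 16 regulators of LHCB transcription 15 were measured, and ABI4, an ABA response factor, did not pass the filter. Under ABA in wild type 8 of the 15 were called, where 53.4% of all genes were called, so the count is near the share over all genes. Of these 3 rose and 5 fell: CCA1 and LHY, morning factors of the clock, rose by 3.43 ± 0.26 and 1.80 ± 0.27, PIF3, a phytochrome-interacting factor, rose by 2.38 ± 0.13, and GLK1 and GLK2, activators of photosynthesis genes, fell by 1.29 ± 0.24 and 0.73 ± 0.20. PIF1, which holds back greening in the dark, fell by 1.28 ± 0.18, and HY5, a light-signalling factor, stood at -0.29 ± 0.16 and was not called. In the untreated mutant 3 of the 15 regulators were lower and none was higher, where 14.8% of all genes were lower: GLK1 at -1.40 ± 0.24, GLK2 at -1.04 ± 0.21 and HY5 at -0.75 ± 0.17 (adjusted p 0.00164, 0.00343 and 0.00676). CCA1 and LHY stood at 0.38 ± 0.28 and 0.44 ± 0.27 there and were not called. GUN1, a plastid signalling protein, was not called in any contrast, with estimates from -0.26 to -0.05 in the 4 contrasts between groups. Under ABA in the mutant 4 rose and 2 fell, where 42.5% of all genes were called, with CCA1 at 2.97 ± 0.25, PIF3 at 2.34 ± 0.13, LHY at 1.58 ± 0.26 and GLK1 at -0.67 ± 0.25. Between genotypes under ABA PIF5 alone was called, at 0.80 ± 0.18 (adjusted p = 0.0463).

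Genes that act on the LHCII protein were set beside them. Of 6 genes for pigment supply and insertion, 3 fell and 1 rose under ABA in wild type. Of all genes 53.4% were called there, so the count is near the share over all genes. CPSRP43, the chloroplast signal recognition particle subunit specific to antenna proteins, fell by 1.75 ± 0.16 there, was at -1.45 ± 0.16 in the untreated mutant and fell by 0.50 ± 0.16 under ABA in the mutant (adjusted p 3.15e-06, 7.95e-05 and 0.0223), and its ABA response differed between genotypes by 1.25 ± 0.22 (adjusted p = 0.0135). CAO, which makes chlorophyll b, rose under ABA by 0.69 ± 0.12 in the mutant and 0.73 ± 0.12 in wild type. CPSRP54 and ALB3, the partners of CPSRP43 in delivery and membrane insertion, were not called in any contrast, with estimates of -0.26 at the lowest. CPFTSY, the receptor of the particle, fell by 0.36 ± 0.11 under ABA in wild type. LTD, which guides antenna proteins inside the chloroplast, fell by 0.90 ± 0.30 under ABA in wild type and was at -0.91 ± 0.30 in the untreated mutant.

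Of 8 genes for LHCII phosphorylation, chlorophyll breakdown and quenching, 5 rose and 2 fell under ABA in wild type, and 6 rose under ABA in the mutant. Of all tested genes 25.2% rose and 28.2% fell under ABA in wild type, and 21.5% rose under ABA in the mutant. NYE1, which starts chlorophyll breakdown, rose by 1.86 ± 0.30 in the mutant and 2.08 ± 0.30 in wild type. STN8, the kinase of core proteins, and PSBS, the sensor of energy quenching, were the genes that fell in wild type, at -1.40 ± 0.28 and -1.40 ± 0.30, and NOL, a chlorophyll b reductase, rose in the mutant by 0.60 ± 0.13. STN7, the kinase of state transitions, rose by 0.58 ± 0.19 in the mutant and 0.82 ± 0.19 in wild type, and PPH1, the opposing phosphatase, by 0.64 ± 0.12 in the mutant and 0.34 ± 0.12 in wild type. In the untreated mutant 3 of the 8 were lower, where 14.8% of all genes were lower: STN8 at -1.56 ± 0.28, PSBS at -1.15 ± 0.30 and NOL at -0.40 ± 0.13 (adjusted p 0.00204, 0.0148 and 0.04). STN7 and PPH1 stood at 0.19 ± 0.19 and -0.23 ± 0.12 there and were not called, and none of the 8 was called between genotypes under ABA or in the interaction.

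**Figure D4:**
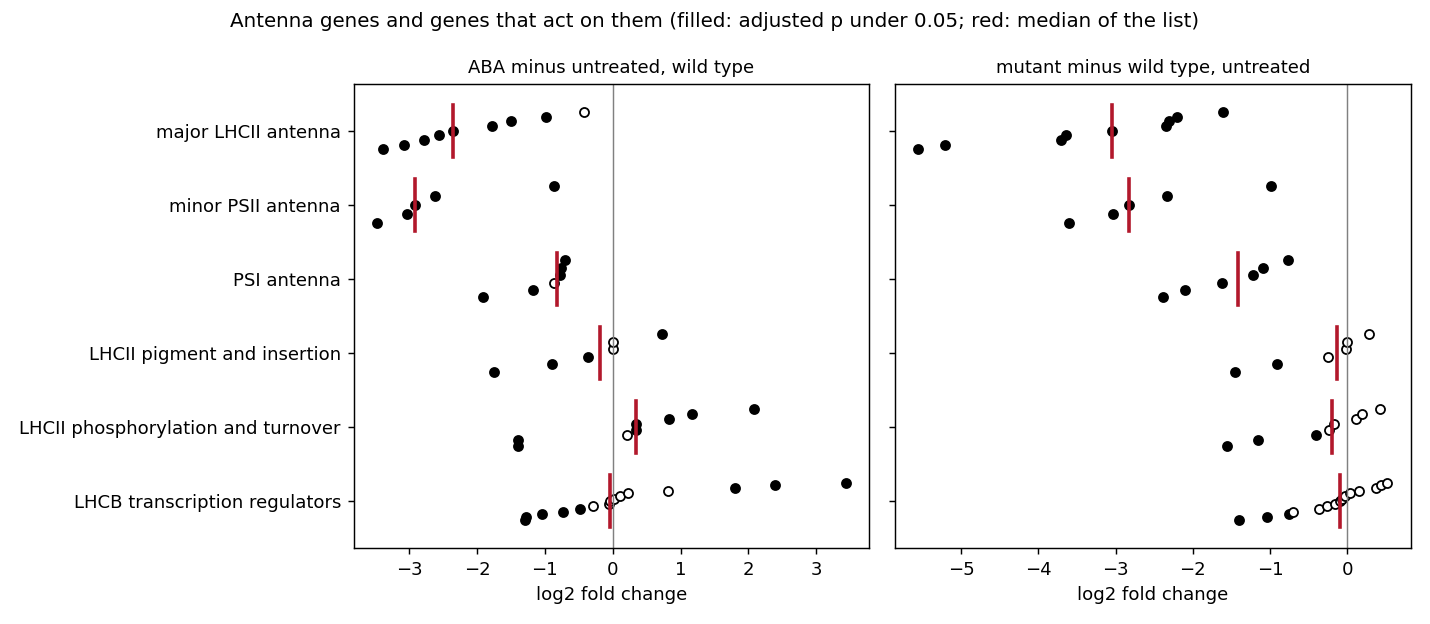
Log2 fold change of each measured gene in the major antenna and 5 related lists, for ABA in wild type and for the untreated mutant against wild type, filled where the adjusted p is under 0.05 and with a red bar at the list median. The 3 antenna lists lie left of 0 (medians -2.35, -2.91 and -0.82 for ABA, and -3.05, -2.83 and -1.42 for the mutant), while the other lists have medians of -0.20 to 0.34.

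Members followed each other across the 12 libraries, as a description of points that share 4 group means. Pearson's r on log2 CPM with the sum of the other members was 0.916 to 0.996 for 8 of them and 0.606 for LHCB1.4. The 5 other nuclear genes most like the summed members were LHCA2 (r = 0.996), an antenna gene of photosystem I, PSBR (0.994), a photosystem II subunit, PSAE-2 (0.991), a photosystem I subunit, AT5G09310 (0.988) and SDH8 (0.987), a subunit of mitochondrial complex II.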

How the data were processed

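Raw counts per gene, whole numbers with no normalization that the values show, were deposited by the authors for 12 libraries of 4 groups. Per the submitters' processing notes, Trim Galore 0.3.3, edgeR (no version) and the TAIR10 build were used, and per the labels' protocols libraries came from a stranded mRNA kit. The aligner, the counting tool and its treatment of strand and shared reads: not given in the sources used here. Members, comparison lists and tests were chosen with earlier results of these data known.

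The filterByExpr filter, with groups as the design, kept 21322 of 33610 genes and 99.96% of counts, and scaled with TMM. A quasi-likelihood model in edgeR 4.0.16 (R 4.3.3) with a mean for each of the 4 groups was fitted to all 12 libraries, and p-values were Benjamini-Hochberg adjusted over all tested genes within each comparison. A gene was called, and is said to have risen or fallen, at an adjusted p under 0.05. Each printed adjusted p comes from this fit unless another setting is named. An SE is the log2 fold change over the square root of F, and intervals cover 95%. Subfamily sums replaced their members in a second fit. Over all genes the biological coefficient of variation was 0.185. A floor of 3 counts covers counting error only. Scripts were tested on simulated counts.

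Genes named beside the members are the highest and lowest antenna gene of each comparison, up to 3 called genes of each regulator, insertion and phosphorylation list with the smallest adjusted p, a list of genes always reported (GLK1, GLK2, HY5, GUN1, ABI4, CCA1, LHY, CAO, CPSRP43, CPSRP54, ALB3, STN7 and PPH1), the 5 genes most correlated with the summed members, and RD29A and RAB18; LHCB4.1 in the interaction was added after its value was seen. Sequences, gene lengths and GC content are from RefSeq TAIR10.1, in which 32843 gene IDs matched and 767 did not; as its build name differs from the authors', no coordinates are given. Alternatives were RLE and upper-quartile scaling, no filter, DESeq2 1.42.0, a smooth correction for GC content and length (mgcv 1.9.3), a replicate block, a fit of the 2 groups compared, and leaving out each library. Replicates within a group differed by more than sampling noise, so none was counted as a repeat deposit. Ratios of counts were compared with an exact permutation test.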

Additional observations from a re-analysis of the deposited data

Results flagged for a closer look

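The response to ABA differed between the genotypes by an interaction test in edgeR for 4 genes and 1 sum, in each case with the response in the mutant above that in wild type on the log2 scale. The differences were 3.88 for LHCB1.5, 2.82 for LHCB1.2, 2.46 for LHCB1.3 and 1.74 for LHCB2.1, and 2.44 for the summed LHCB1 counts. LHCB1.5 is the 1 gene of these that moved in opposite directions with calls in both genotypes, at 1.33 under ABA in the mutant and -2.55 under ABA in wild type. The mutant started from a far lower untreated level in all of them.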

How the results depend on the processing

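The tests on single members kept their direction and side of the threshold in 616 of 675 alternative results. For the 9 genes lowered in the untreated mutant all 14 alternatives called 9, and ABA in wild type gave 6 to 8. The length and GC correction and, with it, the replicate block turned the sign of the LHCB1 sum under ABA in the mutant (0.046 and 0.049), of LHCB1.3 (0.053 and 0.059), LHCB2.1 (0.017 and 0.020) and LHCB2.2 (0.17 and 0.18), and of LHCB1.4 under ABA in wild type (0.83 and 0.82). For the mutant under ABA, DESeq2 called the LHCB1 sum (-1.21), 5 members and 753 genes, and the correction, the correction with the block and the fit of 2 groups called 0 members. In the interaction the LHCB2 sum was called with no filter (1.59), by DESeq2 (1.58) and after the correction (1.25), and genes called numbered 782 by DESeq2, 251 after the correction and 198 after the correction with the block. The cause of these changes was not tested. Upper-quartile scaling moved the median of all genes to -0.13 under ABA in wild type and -0.12 in the mutant, and the share of called genes that were higher to 39.8%, against 50.5%, under ABA in the mutant. By DESeq2 78.4% of called genes were higher in the mutant under ABA, against 90.1% by edgeR.

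Over all groups replicate numbers did not pair the libraries: 6 of 18 same-number pairs had correlated deviations above 0.1 (range -0.36 to 0.54). Their median was -0.01, against 0.003 for pairs with different numbers. Between the genotypes under ABA same-number pairs stood higher, at 0.54, 0.06 and 0.35, against -0.54 to 0.10 for different numbers. Some pairing of those groups is thus not excluded. With a replicate block the interaction of the LHCB1 sum stood at 2.46 (adjusted p = 0.0571) and LHCB1.3 at 2.48, neither called, and with the correction as well the LHCB1 sum stood at 1.48 (adjusted p = 0.0922) and 2 members were called.

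Leaving out 1 library at a time gave these ranges. Under ABA in the mutant the LHCB1 sum ranged from -0.63 to 0.10, the LHCB2 sum from -0.47 to 0.15, members called higher from 1 to 2 and lower from 0 to 2. Of single genes there LHCB1.3 ranged from -0.63 to 0.13, LHCB2.1 from -0.25 to 0.29 and LHCB2.2 from -0.33 to 0.13, and LHCB1.4 under ABA in wild type from -1.02 to 0.25. Genes called ranged from 2820 to 5668 in the untreated mutant against wild type (2820 without its replicate 1, and 3242 and 3321 without replicates 1 and 2 of untreated wild type). In the mutant under ABA they ranged from 167 to 325 and members called lower from 0 to 1. In the interaction they ranged from 129 to 478, members called higher from 1 to 6, the LHCB1 sum from 2.14 to 2.87 and the LHCB2 sum from 1.38 to 1.99.

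Low counts limit LHCB2.2, LHCB2.3 and, in the untreated mutant, LHCB1.4, and 3 libraries per group limit every test.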
